A study of Mus musculus with 83 samples.

Results

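Transcripts of Polycomb repressive complex 2 (PRC2) were followed in the colon of aging mice. The 10 genes described are Ezh1, Ezh2, Suz12, Eed, Rbbp7, Phf1, Mtf2, Phf19, Jarid2 and Aebp2, chosen by name as genes of the complex, and all 10 were found among the 37764 genes of the count table and passed the filter on low counts. RNA was sequenced from the colon of 83 male C57BL/6J/Ukj mice, with groups of 16 (3 months), 16 (9 months), 16 (15 months), 17 (24 months) and 18 (28 months). The mice were kept for aging with no treatment or mutation named in the labels, and each mouse gave 1 library. Polyadenylated, stranded libraries were prepared in 3 batches, each with 4 to 7 mice of every age, and gave between 23026370 and 75838290 counted read pairs per mouse (median 35495123). The DNA methylation data of the same study were not analysed here.

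PRC2 places methyl groups on lysine 27 of histone H3, a mark of silent developmental genes. Its core joins a methyltransferase, Ezh2 or its paralog Ezh1, to Suz12, Eed and a histone-binding protein, Rbbp7 or Rbbp4. Accessory proteins define alternative forms of the complex: Phf1, Mtf2 and Phf19 belong to PRC2.1, while Jarid2 and Aebp2 belong to PRC2.2. In the intestine the complex is known for its role in crypt stem and progenitor cells, which divide throughout life. The question addressed was whether the transcripts of these subunits differed between ages.

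Promoter sequences are shown first for the 5 subunits whose correlation with the proliferation genes passed the threshold, a choice made by that result. They are shown because the E2F factors and the CCAAT box are textbook elements of cell cycle promoters. The sequences and starts were taken from RefSeq (build GRCm38.p6), which gave windows for 10 of the 10 genes. The gene positions printed further below come from another annotation, whose starts differ for some genes. By those positions, the runs of Ezh2, Phf19 and Phf1 lie partly or wholly inside the gene. Each run holds the 250 bases before the annotated start, 5′ to 3′ on the strand of the gene, and capitals mark E2F letters (TTTCCCGC, TTTGGCGC, TTTCGCGC or TTTGCCGC) and the CCAAT box (CCAAT), both read on either strand.
Ezh2, chr6:47595031-47595280, minus strand: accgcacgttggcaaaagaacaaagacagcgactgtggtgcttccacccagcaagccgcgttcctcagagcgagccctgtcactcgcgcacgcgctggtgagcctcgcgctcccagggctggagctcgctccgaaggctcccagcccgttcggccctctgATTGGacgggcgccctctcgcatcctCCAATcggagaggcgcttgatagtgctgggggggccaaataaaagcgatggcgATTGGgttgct
Rbbp7, chrX:162760122-162760371, plus strand: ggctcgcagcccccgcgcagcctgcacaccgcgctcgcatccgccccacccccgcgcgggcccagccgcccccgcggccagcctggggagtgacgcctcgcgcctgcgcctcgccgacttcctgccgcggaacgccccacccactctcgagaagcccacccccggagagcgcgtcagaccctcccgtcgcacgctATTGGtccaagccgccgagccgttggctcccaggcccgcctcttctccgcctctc
Phf19, chr2:34913977-34914226, minus strand: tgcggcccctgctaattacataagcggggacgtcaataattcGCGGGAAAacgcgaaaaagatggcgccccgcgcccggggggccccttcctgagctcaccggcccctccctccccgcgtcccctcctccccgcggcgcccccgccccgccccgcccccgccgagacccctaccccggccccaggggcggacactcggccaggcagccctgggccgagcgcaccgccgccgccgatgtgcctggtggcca
Ezh1, chr11:101226464-101226713, minus strand: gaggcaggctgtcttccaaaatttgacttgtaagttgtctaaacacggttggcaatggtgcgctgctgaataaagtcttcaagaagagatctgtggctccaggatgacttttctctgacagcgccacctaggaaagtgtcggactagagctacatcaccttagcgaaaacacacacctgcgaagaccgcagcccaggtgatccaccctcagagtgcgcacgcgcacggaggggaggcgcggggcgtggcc
Phf1, chr17:26932877-26933126, plus strand: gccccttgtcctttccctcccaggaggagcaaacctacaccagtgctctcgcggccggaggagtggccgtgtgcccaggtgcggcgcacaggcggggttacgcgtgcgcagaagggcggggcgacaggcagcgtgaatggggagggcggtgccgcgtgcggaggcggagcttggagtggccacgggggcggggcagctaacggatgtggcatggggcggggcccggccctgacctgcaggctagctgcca
The first 3 genes rose and fell with the proliferation genes from mouse to mouse, and the last pair moved the other way, as described below for the correlations. In windows of 300 bases that also take in 50 bases after the start, the E2F letters stood in 2.26% of 32817 windows of all genes and in those of Ezh2, Suz12 and Phf19 among the 10 subunits. The matches are printed below with 30 bases around each, capitals marking the match.
Ezh2, chr6:47595009-47595038, minus strand: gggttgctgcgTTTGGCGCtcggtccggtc
Suz12, chr11:79992876-79992905, plus strand: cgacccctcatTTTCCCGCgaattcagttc
Phf19, chr2:34914166-34914195, minus strand: gtcaataattcGCGGGAAAacgcgaaaaag
In Suz12 and Phf19 the match began 219 and 208 bases before the start, and in Ezh2 it began at base 4 after it. The CCAAT letters were found in 37.4% of all windows. Counted by gene they were found in at least 1 window of 7 of the 10 subunits. Some subunits have 2 or 3 windows, so the 7 of 10 is not in the unit of the 37.4%. They stood 3 times in that of Ezh2, 2 times in that of Rbbp7, whose second match spans the start, 1 time in those of Suz12 and Eed and in each of the 2 windows of Jarid2, 3 times in 1 of the 2 windows of Mtf2 and 1 time in 1 of the 3 windows of Aebp2. No CCAAT letters were found for Phf19, Phf1 or Ezh1, and no E2F letters for the 7 subunits other than Ezh2, Suz12 and Phf19, Rbbp7 among them. The number of CpG dinucleotides was 31 for Ezh2, 38 for Rbbp7, 38 for Phf19, 41 for Suz12, 24 for Phf1, 23 for Ezh1, 17 for Eed, 24 and 23 in the windows of Jarid2, 30 and 2 in those of Mtf2 and 4, 21 and 4 in those of Aebp2, against a median of 7 over all genes. Each of the E2F strings holds a CpG, and the share of matches among windows of like CpG number was not computed. A match of letters describes the sequence and does not show binding.

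The subunits were transcribed at unequal levels. In TPM (counts divided by exon length and scaled to the same sum in each mouse), the mean over the 83 mice was 150.2 ± 10.5 (SD) for Rbbp7, 44.9 ± 4.08 for Suz12, 36.7 ± 4.60 for Phf1 and 29.0 ± 1.95 for Eed. Ezh1 followed with 26.3 ± 2.60 TPM, then Mtf2 with 19.4 ± 2.51 and Aebp2 with 18.1 ± 1.56. The lowest were Jarid2 with 16.3 ± 1.51 TPM, Ezh2 with 16.1 ± 1.14 and Phf19 with 3.53 ± 0.587. Most neighbors in this order were separated in most mice: Rbbp7 lay above Suz12 in 83 of 83 mice, Suz12 above Phf1 in 74, Phf1 above Eed in 79 and Ezh1 above Mtf2 in 81. Jarid2 and Ezh2 were not separated, with Jarid2 higher in 46 of 83 mice. The spread between mice of one age was small for most members, with a biological coefficient of variation from 6.21% for Ezh2 to 10.1% for Mtf2 and 15.3% for Phf19, the least transcribed of them.

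Each pair of ages was compared with edgeR's quasi-likelihood test over all genes, with library batch in the model and a Benjamini-Hochberg adjusted p-value below 0.1 as the threshold. Levels are given as CPM, the count of a gene relative to the TMM-adjusted total of its library. Of the 10 subunits, 5 differed between ages in the joint test of the 5 ages (Ezh1, Eed, Jarid2, Aebp2 and Phf1), where 54.9% of the 18325 genes tested did. Between 28 and 3 months the same 5 genes passed, 2 higher and 3 lower, against 49.4% of all genes (23.5% higher and 25.9% lower). The shares of the subunits were thus close to the background. The changes were small: the median absolute log2 change of the 10 subunits was 0.10 at 28 against 3 months, and over all genes it was 0.14. Because the tissue is bulk, fewer cells of a type and less RNA per cell cannot be told apart in any of these values.

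**Figure D1:**
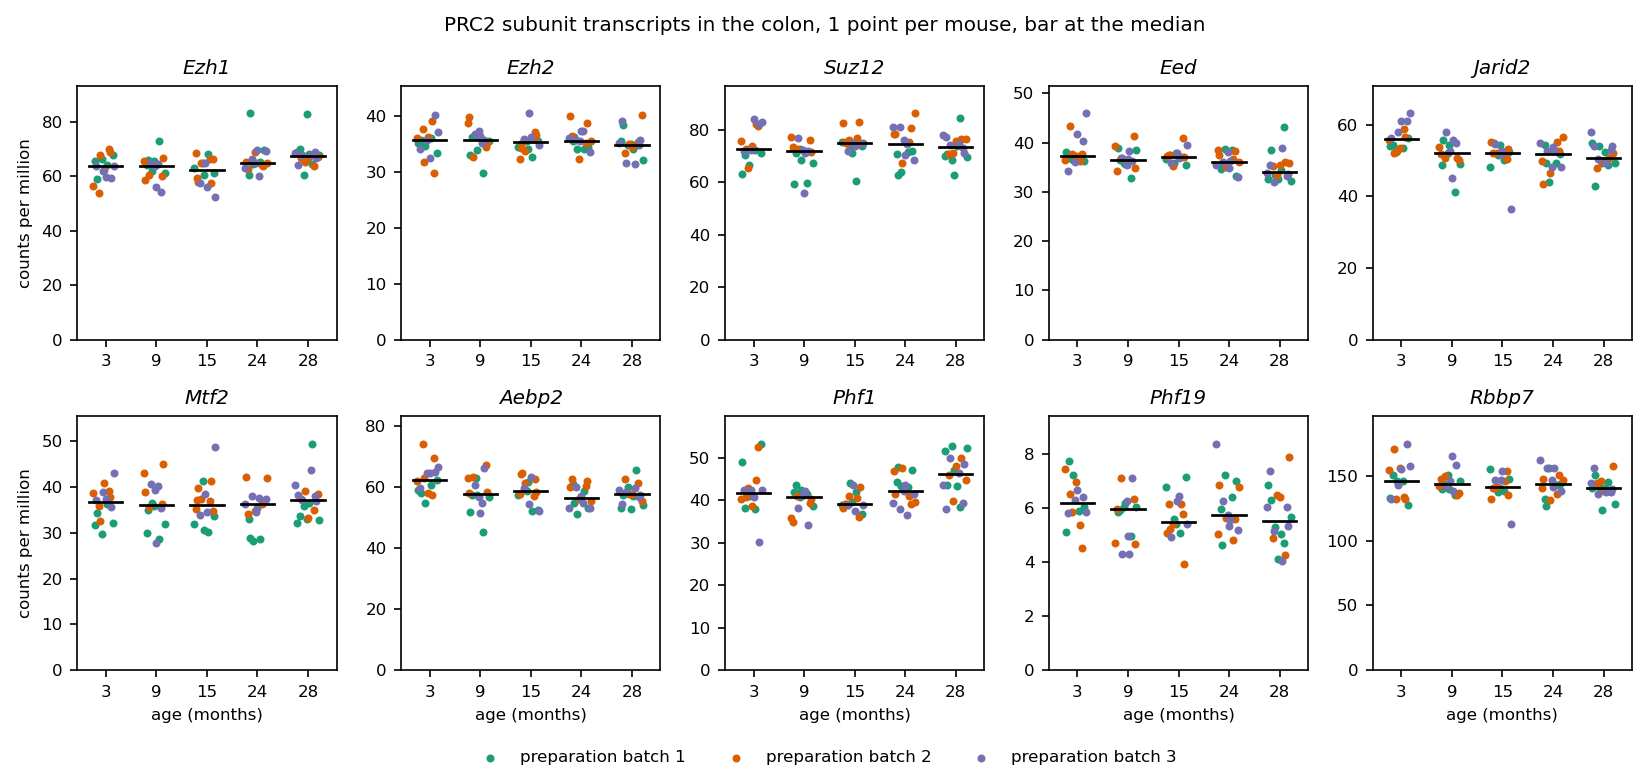
Transcript level in CPM (y axis, starting at 0) against age in months (x axis, ages evenly spaced) for the 10 PRC2 subunit genes, 1 point per mouse colored by preparation batch, with a black bar at the median. The ages overlap in each panel, and the steps between the medians at 3 and 28 months, such as from 41.6 to 46.2 in Phf1 and from 56.0 to 50.6 in Jarid2, are smaller than the range of the points at either age.

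Of the catalytic subunits, Ezh1 rose between 3 and 28 months and Ezh2 did not pass the test, and the difference between their changes was not tested. Ezh2 (ENSMUSG00000029687, chr6:47530139-47595341, minus strand) is the main methyltransferase of dividing cells. Its lowest, median and highest values were 29.8, 35.8 and 40.2 CPM at 3 months (n = 16) and 31.5, 35.0 and 40.3 CPM at 28 months (n = 18), with medians of 35.7, 35.5 and 35.7 CPM at 9, 15 and 24 months. The ranges covered each other almost completely, and 14 of 18 mice at 28 months were below the 3-month median. The change at 28 against 3 months was -0.559%, with a 95% interval from -4.80 to 3.87% (adjusted p = 0.859), so that a change of over 5% in either direction lies outside the interval. Ezh2 passed the threshold in none of the 10 pairs of ages.

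Ezh1 (ENSMUSG00000006920, chr11:101191115-101226463, minus strand) is the methyltransferase more common in resting cells. It ranged from 53.7 to 69.8 CPM at 3 months (median 63.7) and from 60.4 to 82.7 CPM at 28 months (median 67.2). The medians in between were 63.9, 62.2 and 64.7 CPM. The groups overlapped, yet 16 of 18 mice in the oldest group exceeded the 3-month median. Ezh1 was 6.68% higher at 28 than at 3 months (log2 change 0.09 ± 0.03 SE, 95% interval 1.77 to 11.8%, adjusted p = 0.0244). Against 15 months it was 9.13% higher at 28 months (adjusted p = 0.00305) and 7.36% higher already at 24 months (adjusted p = 0.0572), where 15 of 17 mice lay above the 15-month median. The differences between 28 and 3 months in the 3 batches were 0.09, 0.07 and 0.12 on the log2 scale. With the proliferation genes as a covariate the change between 28 and 3 months was 0.06 (adjusted p = 0.142), and the call against 15 months at 24 months was lost at a threshold of 0.05 and with no filter on low counts.

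Set against each other per length, Ezh1 exceeded Ezh2 in 83 of 83 mice. The ratio of Ezh1 to Ezh2 in TPM had a median of 1.60 in the youngest mice (range 1.28 to 2.07), stayed at 1.57 and 1.56 in midlife (9 and 15 months), and reached 1.63 at 24 months and 1.73 in the oldest (range 1.46 to 2.12). In the oldest group 15 of 18 mice exceeded the 3-month median and 1 exceeded the highest 3-month mouse.

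Of the other core subunits, Eed fell and Suz12 and Rbbp7 did not pass the test. Eed (ENSMUSG00000030619, chr7:89954654-89980983, minus strand), which binds the trimethylated histone and stimulates the enzyme, spanned 34.3 to 46.0 CPM at 3 months (median 37.2) and 32.1 to 43.2 CPM at 28 months (median 34.1). Its medians at 9, 15 and 24 months were 36.6, 37.1 and 36.1 CPM. Although the ranges overlapped, 15 of 18 mice at 28 months were below the 3-month median and 9 were below the lowest 3-month mouse. Eed fell by 8.28% from 3 to 28 months (log2 change -0.12 ± 0.03 SE, 95% interval -12.2 to -4.21%, adjusted p = 0.00103), and the 3 batches gave -0.07, -0.11 and -0.19 on the log2 scale. It was also lower at 24 than at 3 months (-5.12%, adjusted p = 0.0705), at 28 than at 9 months (-4.78%, adjusted p = 0.0800) and at 28 than at 15 months (-5.79%, adjusted p = 0.0293). Of 12 alternatives in the processing, the call between 24 and 3 months was lost under 5 and that between 28 and 9 months under 9, DESeq2 among them. Without 5 mice low in smooth muscle markers, described after the slopes, the change between 24 and 3 months was -0.04 on the log2 scale (adjusted p = 0.434), and Eed no longer passed the joint test of the 5 ages.

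Suz12 (ENSMUSG00000017548, chr11:79993106-80034123, plus strand), the scaffold of the complex, had medians of 72.5, 71.9, 74.9, 74.4 and 73.5 CPM from the youngest to the oldest age. Between 28 and 3 months it changed by -0.562% (95% interval -5.23 to 4.33%, adjusted p = 0.873). Rbbp7 (ENSMUSG00000031353, chrX:162760402-162779092, plus strand), the histone-binding subunit and the most abundant of these transcripts, had medians of 146.4, 143.9, 141.5, 143.8 and 141.2 CPM. Its change at 28 against 3 months was -3.37% (95% interval -7.92 to 1.41%, adjusted p = 0.265). Neither gene passed in any of the 10 pairs. Between 28 and 9 months Suz12 was called higher under 4 of 12 alternatives, and it was called in the joint test and in the linear trend under 2 (with smooth muscle and B cell covariates, and without 5 mice low in smooth muscle markers). With the proliferation covariate Rbbp7 was called higher between 28 and 9 and between 28 and 15 months and was called in the joint test.

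**Figure D2:**
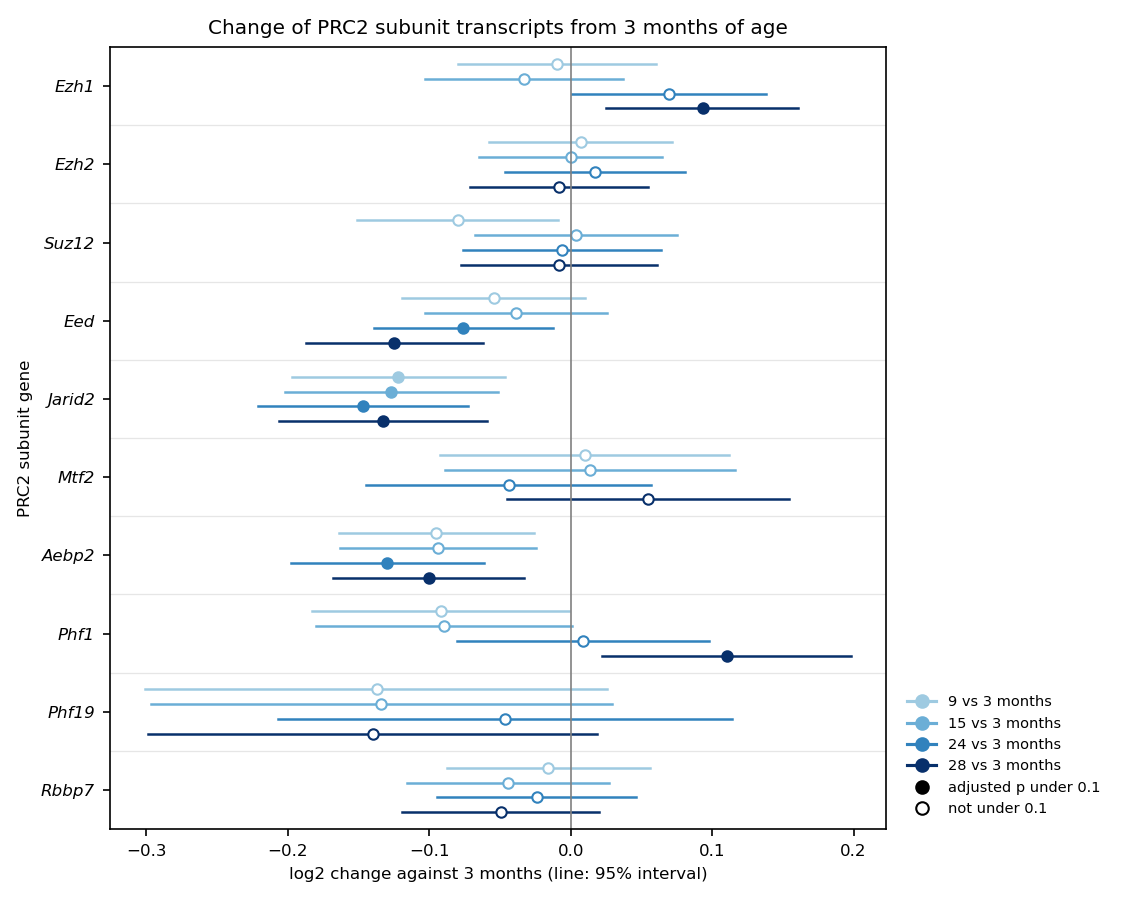
Log2 change of each PRC2 subunit gene at 9, 15, 24 and 28 months against 3 months (x axis) with its 95% interval as a line, 1 row group per gene (y axis), filled points marking an adjusted p-value below 0.1 (edgeR). Jarid2 lies near -0.13 at each later age, Eed moves from -0.05 to -0.12, Phf1 goes from -0.09 at 9 months to 0.11 at 28 months, and Ezh2 lies near 0.

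Of the accessory proteins, Jarid2 and Aebp2 of PRC2.2 fell and Phf1 of PRC2.1 rose between 3 and 28 months. Jarid2 (ENSMUSG00000038518, chr13:44729474-44921643, plus strand), which recruits the complex and is itself a substrate of the enzyme, was lower at each later age than at 3 months. It ranged from 52.0 to 63.2 CPM at 3 months (median 56.0) and from 41.2 to 58.0 CPM at 9 months (median 52.0). At 15, 24 and 28 months the medians were 52.1, 51.9 and 50.6 CPM, and the 28-month mice ranged from 43.0 to 58.1 CPM. The ranges overlapped, but 8 of 16 mice at 9 months and 10 of 18 at 28 months were below the lowest 3-month mouse.

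Jarid2 fell by 8.09% between 3 and 9 months (log2 change -0.12 ± 0.04 SE, adjusted p = 0.0509), and it was the one subunit of the 10 that passed in this comparison, where 8.69% of all genes did. It was likewise the one subunit that passed between 15 and 3 months (-8.43%, adjusted p = 0.0322, 7.75% of all genes). From 3 months it fell by 9.66% to 24 months (adjusted p = 0.00240) and to 28 months the change was -8.79% (95% interval -13.3 to -4.04%, adjusted p = 0.00275). The batches gave -0.11, -0.13 and -0.17 on the log2 scale at 28 against 3 months, -0.11, -0.09 and -0.17 at 9 months, and -0.08, -0.06 and -0.31 at 15 months. The third of these at 15 months rests on 4 older mice, of which 15-month mouse 16 had the lowest level of its age (36.6 CPM), and without it the change between 15 and 3 months was -0.09 over all batches (adjusted p = 0.0883). The call between 9 and 3 months was lost without 3-month mouse 10, 3-month mouse 16 or 9-month mouse 12 (adjusted p = 0.101, 0.104 and 0.114), at a threshold of 0.05, with no filter on low counts and without the 5 mice low in smooth muscle markers (adjusted p = 0.149). That between 15 and 3 months was lost without these mice (adjusted p = 0.112) and with smooth muscle and B cell covariates. In pairs of later ages Jarid2 did not pass, and between 28 and 9 months the 95% interval ran from -5.67 to 4.41%.

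Aebp2 (ENSMUSG00000030232, chr6:140622663-140678472, plus strand), a zinc finger protein of the same form, followed a similar course. It ranged from 54.8 to 74.2 CPM at 3 months (median 62.1) and from 52.8 to 65.5 CPM at 28 months (median 57.5), with medians of 57.7, 58.5 and 56.2 CPM in between. The ranges overlapped, and 16 of 18 mice at 28 months were below the 3-month median. Aebp2 fell by 6.73% from 3 to 28 months (log2 change -0.10 ± 0.03 SE, 95% interval -11 to -2.27%, adjusted p = 0.0140) and its change at 24 months was -8.59% (adjusted p = 0.00357). In the 3 batches the difference between 28 and 3 months was -0.05, -0.11 and -0.15 on the log2 scale. At 9 months the change was -6.37% with an adjusted p of 0.1001, just short of the threshold. Without the 5 mice low in smooth muscle markers, Aebp2 was still called at 24 and 28 months.

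Among the accessory proteins of PRC2.1, Phf1 (ENSMUSG00000024193, chr17:26933052-26937908, plus strand) binds unmethylated CpG-rich DNA and histone marks of active genes. Its medians were lowest at 9 and 15 months and highest at 28 months. Its lowest, median and highest values were 30.1, 41.6 and 53.4 CPM at 3 months, 34.1, 40.9 and 43.6 CPM at 9 months and 36, 39.1 and 44.0 CPM at 15 months. At 24 months they were 36.5, 42.1 and 47.9 CPM and at 28 months 38.0, 46.2 and 52.7 CPM. Against 3 months, the changes at 9 and 15 months were each -0.09 on the log2 scale and did not pass (adjusted p = 0.258 and 0.303). In the 3 batches they were -0.07, -0.18 and 0.000151 at 9 months and -0.11, -0.12 and 0.01 at 15 months. The 3-month mice were the most spread, and 13 of 18 mice in the oldest group exceeded the highest mouse of 9 months. Phf1 was 15.0% higher at 28 than at 9 months (log2 change 0.20 ± 0.04 SE, adjusted p = 0.000275), 14.9% higher than at 15 months (0.20 ± 0.05, adjusted p = 0.000302) and 7.93% higher than at 3 months (0.11 ± 0.05, 95% interval 1.53 to 14.7%, adjusted p = 0.0412). In the 3 batches the difference between 28 and 3 months was 0.11, 0.08 and 0.17 on the log2 scale. This call was lost with the proliferation genes as a covariate (0.04, adjusted p = 0.349) and without 3-month mouse 14 (adjusted p = 0.108).

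Mtf2 (ENSMUSG00000029267, chr5:108065674-108109004, plus strand), the recruiter of the complex to CpG islands, had medians of 36.8, 36.1, 36, 36.3 and 37.1 CPM from 3 to 28 months. It changed by 3.85% at 28 against 3 months (95% interval -3.08 to 11.3%, adjusted p = 0.401), or 0.05 on the log2 scale, and without 28-month mouse 13 alone by 0.02 (adjusted p = 0.766). Phf19 (ENSMUSG00000026873, chr2:34893757-34914026, minus strand), the third of these Polycomb-like proteins, was the lowest and most variable subunit. Its medians were 6.19, 5.97, 5.51, 5.76 and 5.52 CPM, and its change at 28 against 3 months was -9.25% with a wide interval from -18.7 to 1.29% (adjusted p = 0.158).

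Summed in TPM, Phf1, Mtf2 and Phf19 exceeded Jarid2 and Aebp2 in 83 of 83 mice. The ratio of these sums had a mean of 1.63 ± 0.137 (SD, n = 16) in the youngest mice, then 1.70 ± 0.144 (n = 16), 1.70 ± 0.193 (n = 16) and 1.78 ± 0.131 (n = 17), and 1.87 ± 0.1 (n = 18) in the oldest. At 28 months 18 of 18 mice lay above the 3-month median and 12 above the highest 3-month mouse. The sums behind the ratio were 60.3 TPM against 37.0 TPM at 3 months and 64.5 TPM against 34.6 TPM at 28 months. Epop, a further PRC2.1 partner, which was lower at 28 than at 3 months as described below, is not in these sums. The ratio is given as a description and was not tested.

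**Figure D3:**
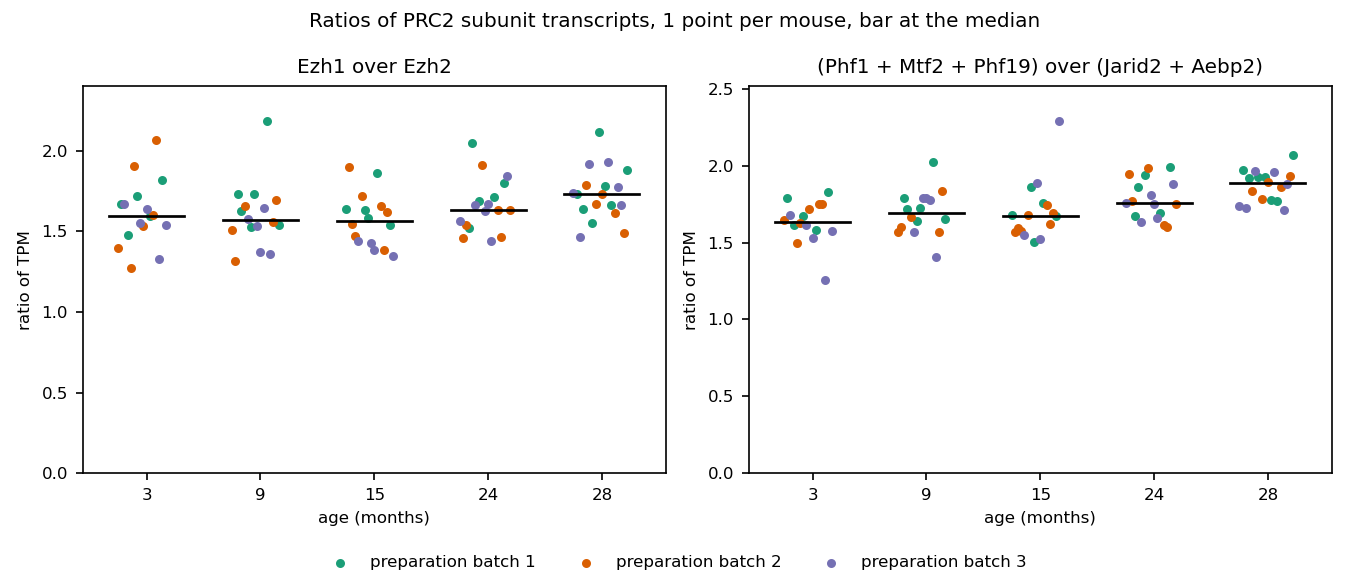
Ratio of TPM (y axis, starting at 0) of Ezh1 to Ezh2 on the left and of summed Phf1, Mtf2 and Phf19 to summed Jarid2 and Aebp2 on the right, against age in months (x axis), 1 point per mouse colored by preparation batch, with a black bar at the median. The medians on the right go from 1.64 at 3 months to 1.89 at 28 months, and those on the left from 1.60 to 1.73.

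The other pairs of ages were compared in the same way. Between 24 and 3 months 3 subunits passed, all lower (Eed, Jarid2 and Aebp2), where 34.5% of all genes did, and between 28 and 9 months 3 passed (Ezh1 and Phf1 higher, Eed lower), where 40% did. The same 3 passed between 28 and 15 months, with 42.4% of all genes. Between 24 and 15 months Ezh1 alone passed, with 13.5% of all genes. None of the 10 passed between 15 and 9 months (0.431% of all genes), 24 and 9 months (15.5%) or 28 and 24 months (11.7%) by edgeR or DESeq2. At an unadjusted edgeR p-value below 0.05 there was 1 subunit between 15 and 9 months (Suz12), 3 between 24 and 9 months (Ezh1, Suz12 and Phf1) and 1 between 28 and 24 months (Phf1).

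A straight line in age fitted the same 5 genes with a slope past the threshold, where 53.2% of all genes had one (25.8% rising and 27.4% falling). The slopes were 0.0043 log2 units per month for Ezh1 (adjusted p = 0.00260) and 0.0051 for Phf1 (adjusted p = 0.00839), and -0.0041 for Eed (adjusted p = 0.00139), -0.0044 for Jarid2 (adjusted p = 0.00431) and -0.0036 for Aebp2 (adjusted p = 0.01). Phf1 alone departed from a line (adjusted p = 0.0224), where 16.2% of all genes did. Jarid2 did not pass this test (adjusted p = 0.193).

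The tissue label was checked on markers of colon epithelium: at 3 months 5 goblet cell markers summed to 27950 to 37530 CPM and 5 colonocyte markers to 6944 to 11340 CPM. Some libraries stood apart. In 5 mice (3-month mice 10, 12 and 16 and 9-month mice 4 and 6) the summed CPM of 6 smooth muscle markers was 732 to 1393, below the limit of 1794 set at 0.5 times the median of 3588 over all mice. Without them, the same 5 subunits passed between 28 and 3 months, with Eed at -0.08 (adjusted p = 0.0397), Jarid2 at -0.10 (adjusted p = 0.0428), Aebp2 at -0.09 (adjusted p = 0.0508), Ezh1 at 0.12 (adjusted p = 0.0104) and Phf1 at 0.13 (adjusted p = 0.0287) on the log2 scale. The early fall of Jarid2 no longer passed without them, at -0.11 between 9 and 3 months (adjusted p = 0.149) and -0.10 between 15 and 3 months (adjusted p = 0.112), nor did Eed between 24 and 3 months (-0.04, adjusted p = 0.434). Markers of other cells also moved between 3 and 28 months, where 23.5% of all genes were higher and 25.9% lower. Higher were 4 of 5 macrophage and 3 of 4 endothelial markers. Lower were 4 of 5 B cell, 2 of 3 germinal center B cell, 3 of 3 tuft cell and 2 of 4 enteroendocrine markers, and 4 of 5 goblet cell markers, of which the remaining one was higher. Also past the threshold were 1 of 5 colonocyte, 1 of 5 T cell and 1 of 4 enteric neuron markers, 1 of 3 adipocyte markers, and 1 in each direction among 4 stem cell and 5 fibroblast markers. Of 6 smooth muscle, 4 enteric glia, 2 interstitial cell of Cajal and 3 plasma cell markers none passed by edgeR, and none had an unadjusted p-value below 0.05. None of these lists had a marker at 0 in all mice of an age, and with the smooth muscle and B cell markers as covariates the same 5 subunits passed. The part of the other cell types in these changes was not tested.

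The proliferation genes were followed as a further list. Between 28 and 3 months, 11 of 16 proliferation genes fell and none rose, where 25.9% of all genes fell and 23.5% rose, with Mki67 at -0.17 (adjusted p = 0.0583) and a summed level of 622 to 1422 CPM (median 973) at 3 months and 742 to 1081 CPM (median 833) at 28 months. Across mice, each subunit was correlated with the mean log2 CPM of 5 lists (proliferation, smooth muscle, B cell, macrophage and endothelial genes) after centering within age and batch, 50 relations in all, and 8 had an adjusted permutation p-value below 0.1. The share of all genes with such relations to these lists was not computed, so this count has no background beside it.

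Rbbp7 had the closest relation with the proliferation genes (Pearson's r = 0.742, Spearman's rho = 0.766, n = 83, both permutation p = 1e-05, the smallest that 100000 resamples can give, adjusted p = 0.000167). Without the 2 mice farthest from the median r was 0.731, and within the batches it was 0.780, 0.742 and 0.723. For Ezh2 r was 0.646 and rho 0.604 (both permutation p = 1e-05, adjusted p = 0.000167), with 0.573 without the 2 mice and 0.490, 0.734 and 0.689 within batches. Both genes thus followed the proliferation genes from mouse to mouse. Neither passed the test between 28 and 3 months, and whether their change differed from that of the proliferation genes was not tested.

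Phf19 also rose with the proliferation genes (r = 0.550 and rho = 0.591, both permutation p = 1e-05, adjusted p = 0.000167, 0.551 without the 2 mice, and 0.648, 0.473 and 0.553 within batches). Phf1 went the other way, with r = -0.651 (permutation p = 2e-05, adjusted p = 0.000250) and rho = -0.571 (permutation p = 1e-05), r = -0.564 without the 2 mice, and -0.530, -0.730 and -0.704 within batches. Ezh1 was negatively related as well (r = -0.417, permutation p = 0.000300, adjusted p = 0.00300, rho = -0.416, permutation p = 0.000200), with -0.397 without the 2 mice and -0.378, -0.644 and -0.218 within batches. When the proliferation genes entered the edgeR model as a covariate, the changes between 28 and 3 months shrank to 0.06 for Ezh1 (adjusted p = 0.142) and 0.04 for Phf1 (adjusted p = 0.349) and no longer passed, while those of Eed, Jarid2 and Aebp2 did. With the same covariate Ezh1 also lost its call between 28 and 9 months and Phf1 its departure from a line, but both were still called in the joint test, in the linear trend and between 28 and 15 months. Phf1 was still called between 28 and 9 months and Ezh1 between 24 and 15 months, and Ezh1 between 24 and 3 months and Phf1 between 24 and 15 months were gained.

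**Figure D4:**
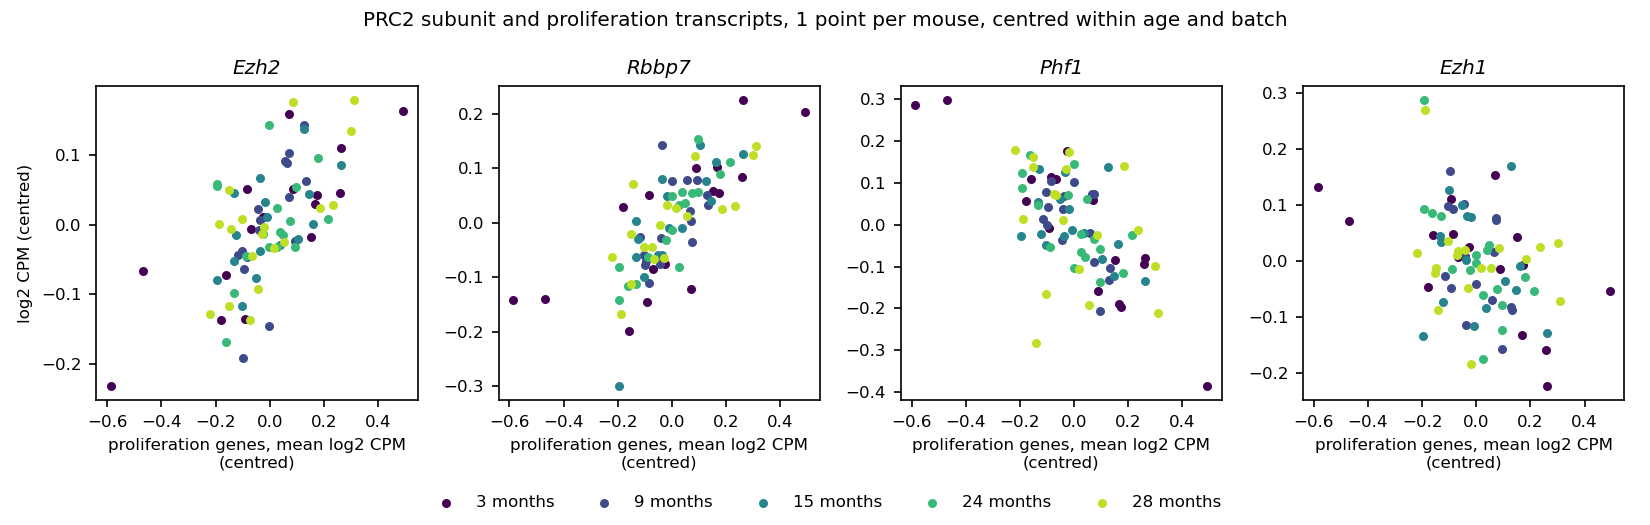
Log2 CPM of Ezh2, Rbbp7, Phf1 and Ezh1 (y axis) against the mean log2 CPM of 16 proliferation genes (x axis), both centered within age and batch, 1 point per mouse colored by age. Ezh2 and Rbbp7 rise with the proliferation genes (r = 0.646 and 0.742), and Phf1 and Ezh1 fall (r = -0.651 and -0.417).

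The remaining relations past the threshold were of Suz12 with smooth muscle (r = -0.405, permutation p = 0.00271, adjusted p = 0.0194, rho = -0.366, permutation p = 0.00272), Mtf2 with macrophage genes (r = -0.402, permutation p = 0.000440, adjusted p = 0.00367, rho = -0.363, permutation p = 0.00166) and Eed with endothelial genes (r = -0.311, permutation p = 0.0149, adjusted p = 0.0933, rho = -0.275, permutation p = 0.0282). Without the 2 farthest mice r was -0.364, -0.387 and -0.337. Within batches Suz12 gave -0.205, -0.431 and -0.567, Mtf2 gave -0.386, -0.279 and -0.530, and Eed gave -0.272, -0.270 and -0.378. For Eed the rank correlation did not pass (adjusted p = 0.141), and for Suz12 with the proliferation genes the rank correlation alone did (rho = 0.312, permutation p = 0.00669, adjusted p = 0.0418, against r = 0.206, permutation p = 0.0859, adjusted p = 0.268). Jarid2 and Aebp2 had no relation past the threshold with any of the 5 lists.

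**Figure D5:**
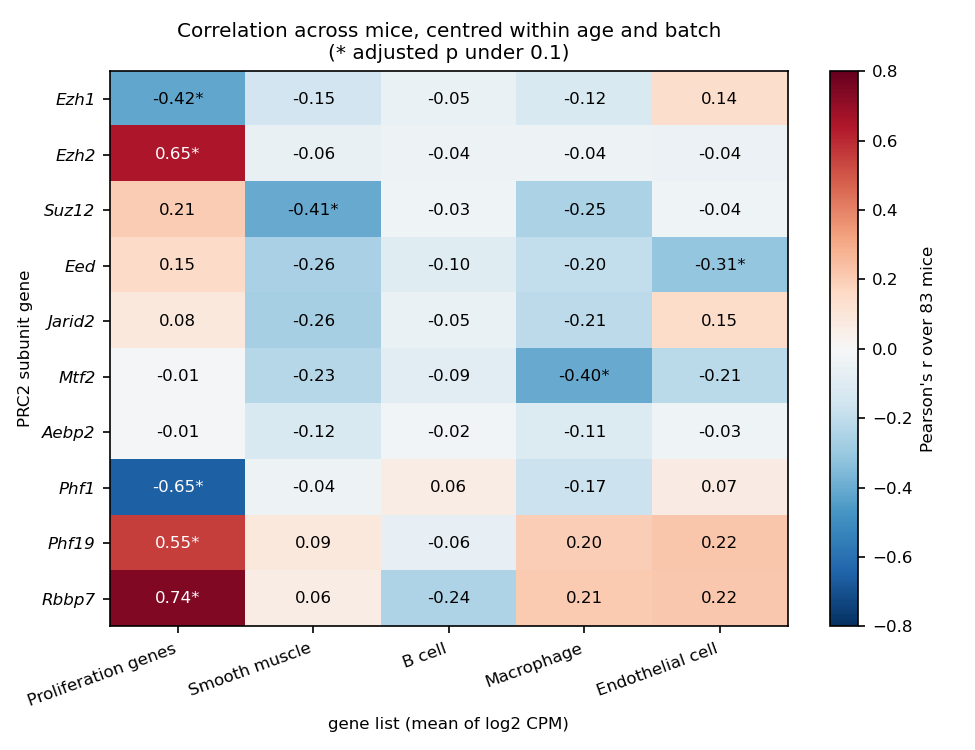
Pearson's r over 83 mice between each PRC2 subunit gene (rows) and the mean log2 CPM of 5 gene lists (columns), centered within age and batch, with color from blue (negative) to red (positive) and an asterisk for an adjusted permutation p-value below 0.1. The proliferation column holds 5 of the 8 marked relations, from -0.651 for Phf1 to 0.742 for Rbbp7.

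The genes most like each subunit across mice, over 14962 genes with a mean of at least 1 CPM, are given as a description. For Ezh2 they were Top2a (r = 0.665), Melk (0.660) and Mms22l (0.658), of which Top2a is a topoisomerase of dividing cells. For Phf19 they were the replication helicase subunits Mcm3 (0.739), Mcm5 (0.720) and Mcm4 (0.719). Rbbp7 was closest to Sae1 (0.861), Rrm1 (0.861), a subunit of ribonucleotide reductase, and Ssrp1 (0.839), a histone chaperone subunit.

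For the other subunits the likest genes were as follows. Ezh1 was closest to Pbld1 (r = 0.744), Pdk2 (0.743) and Hps4 (0.728), and Phf1 to Fam193b (0.688), Ldb1 (0.679) and Sh2b1 (0.653). Eed came closest to Slbp (0.745), which binds the stem-loop of histone messenger RNA, Zfp35 (0.710) and Trmt10c (0.685). Suz12 was followed by Phf6 (0.800) and Mtdh (0.785), Mtf2 by Fam126b (0.821), Prpf39 (0.817) and Rsbn1l (0.807), Jarid2 by Prrc2c (0.709), Ncoa6 (0.693) and Cpd (0.691), and Aebp2 by Kpna3 (0.806), Pura (0.794) and Zfp800 (0.768). The points share libraries and depth, and correlation with the log2 total count ran from -0.226 for Eed to 0.266 for Phf1.

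Partners and counterparts of PRC2 were compared at 28 against 3 months on lists of named genes. Of 4 further PRC2 subunits tested, Rbbp4 was lower by -0.10 on the log2 scale (adjusted p = 0.00145) and Epop, a PRC2.1 partner, by -1.33 (adjusted p = 2e-07), with CPM of 5.16 to 17.2 (median 8.47) at 3 months and 1.21 to 7.63 (median 3.77) at 28 months. The Epop groups overlapped only in part, and its level was far below that of Rbbp4. The other pair, Lcor and Lcorl, did not pass, so that 2 of 4 were called where 49.4% of all genes were. The median log2 change of these 4 genes was -0.09, that of the 10 subunits -0.03 and that of all genes -0.01.

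Polycomb repressive complex 1 (PRC1), which binds the PRC2 mark and ubiquitinates histone H2A, had 10 of 20 subunits past the threshold, 5 in each direction, which is near the 49.4% of all genes. Cbx7, a reader of the mark, rose by 0.52 (adjusted p = 1.87e-12) from 29.4 to 47.1 CPM (median 39.0) at 3 months to 45.8 to 66.8 CPM (median 56.4) at 28 months. Bmi1 also rose, by 0.23 (adjusted p = 0.000393). The related readers Cbx8 and Cbx2 were lower by -0.29 (adjusted p = 4.26e-05) and -0.23 (adjusted p = 0.000105).

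The enzymes that remove the mark moved oppositely. Kdm6a was 0.10 higher (adjusted p = 0.0591, median 30.7 CPM at 3 months and 32.4 at 28 months) and Kdm6b changed by -0.12 (adjusted p = 0.0652, medians 87.0 and 79.4 CPM). Of 8 genes of the Polycomb deubiquitinase 3 passed, where 49.4% of all genes did: Mbd5 rose (0.16, adjusted p = 0.00818) and Asxl3 (-0.20, adjusted p = 0.0130) and Foxk2 (-0.17, adjusted p = 0.000757) fell. Of 9 genes of the H3K4 methyltransferases, which place the opposing mark at bivalent promoters, 5 fell and none rose, against 25.9% and 23.5% of all genes, with Men1 at -0.33 (adjusted p = 1.15e-05) and Rbbp5 at -0.20 (adjusted p = 1.79e-07).

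Nsd1 (-0.25, adjusted p = 9.04e-07) and Nsd2 (-0.14, adjusted p = 0.00194) fell among 5 H3K36 methyltransferases, whose mark inhibits PRC2. Among 7 enzymes of DNA methylation 3 passed and 2 of the 5 before, where 49.4% of all genes did. Tet2 rose by 0.16 (adjusted p = 0.0234) and Dnmt3a (-0.10, adjusted p = 0.0507) and Uhrf1 (-0.18, adjusted p = 0.0868) fell. Of 11 E2F and RB genes 5 passed, against the same share of all genes: 4 fell, with E2f2 at -0.28 (adjusted p = 0.00611) and E2f7 at -0.27 (adjusted p = 0.0165), and Rbl2 rose by 0.23 (adjusted p = 2.36e-05).

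Of 22 genes listed as known Polycomb targets, mostly developmental factors, 21 were matched in the count table, 6 passed the filter on low counts and 5 of these passed the test, where 49.4% of all genes did. Gata4 was 2.28 log2 units higher at 28 than at 3 months (adjusted p = 2.73e-14), with 0.234 to 2.18 CPM (median 0.719) at 3 months and 2.47 to 5.74 CPM (median 4.03) at 28 months, so that the groups did not overlap. Wt1 (1.3, adjusted p = 0.000500) and Nkx2-2 (0.54, adjusted p = 0.000193) also rose, while Cdkn2b (-0.37, adjusted p = 4.33e-05) and Pax6 (-0.33, adjusted p = 0.0124) fell. Cdkn2a, the classic target in aging tissue, had 0 to 4 counts per mouse at 3 months and 0 to 16 at 28 months, and did not pass the filter on low counts. Its median was 0.0465 CPM at 3 months and 0.176 CPM at 28 months.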

How the data were processed

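Polyadenylated RNA of the colon of each mouse was sequenced on stranded libraries. Per the labels and methods, the authors trimmed reads with cutadapt 2.8, aligned them to GRCm38.p6 with HISAT2 2.1.0, and counted properly paired, uniquely mapped reads per gene with featureCounts (Subread 2.0.1). The authors deposited whole-number counts per gene and mouse, without normalization or pooling. In the comparisons, ages came from the sample labels and batches from the preparation labels, and no mouse was left out. Tests used edgeR 4.0.16 (R 4.3.3): filterByExpr by age kept 18325 genes, TMM normalized them, and 1 quasi-likelihood model of age and batch was fitted over all mice, with Benjamini-Hochberg adjustment over all genes tested in each comparison. The study's methods used DESeq2, which was run as an alternative (version 1.42.0). Intervals are normal 95% intervals from the standard error of the log2 change. TPM used merged exon lengths of a GRCm38 annotation, which held 37652 of the 37764 genes, and the other 112 entered no TPM. This annotation is of another release than that named in the study's methods, so levels in TPM, their order and the ratios rest on exon lengths that may differ from those counted. Correlations used log2 CPM with a prior count of 2, centered within age and batch, and two-sided permutation within age and batch (Python 3.11.15, numpy 2.4.6, scipy 1.17.1, pandas 2.3.3, matplotlib 3.10.9), with adjustment over the 50 relations.

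The members and lists were chosen with earlier results of these data known. Named genes are the 10 members, up to 4 called genes per list with the largest change between 28 and 3 months, Rbbp4, Kdm6a, Kdm6b, Cdkn2a and Mki67, and the 3 likest genes of each member, of which 1 is not reported here. Of the listed genes, Ezhip and Nkx2-5 were not analysed here. On counts simulated for 18325 genes at 28 against 3 months, the test called 71 of 100 genes with a log2 change of 0.25, 48 of 50 with 0.5 and 50 of 50 with 1, with 18 unchanged genes among 187 called. Changes of the size seen in the members were below the sizes simulated. Any 2 mice of an age differed by more than the counting noise in each of 649 pairs (lowest ratio 11.7). Alternatives were DESeq2, its size factors, the table unfiltered or filtered at 10 counts in each mouse, a model without batch, a replicate block, cell type or proliferation covariates, a threshold of 0.05, fits of only the 2 ages, and, added after seeing the data, fits without single mice or without the mice low in smooth muscle.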

Additional observations from a re-analysis of the deposited data

How the results depend on the processing

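At 28 against 3 months, the 5 calls among the 10 members (Ezh1 and Phf1 higher, Eed, Jarid2 and Aebp2 lower) were all made under 11 of 12 alternatives. The proliferation covariate gave 3 (without Ezh1 and Phf1), and the replicate block gave these 5 and a sixth (6 in all, with Phf19 at -0.17, adjusted p = 0.0840). Leaving out each of the 34 mice in turn, with the dispersion trend of all mice kept, gave 4 to 6 calls: 4 without 3-month mouse 14 (Phf1 lost), and 6 without 28-month mice 3 or 17 (Phf19 gained, adjusted p = 0.0882 and 0.0606). Done in the same way over 32 mice, the count was 0 to 2 between 9 and 3 months, with Jarid2 lost in 3 fits and Aebp2 gained in 14, and 1 to 2 between 15 and 3 months, with Jarid2 called in all 32 and Aebp2 gained in 8. Over all results, 136 of 157 counts stayed within 1.5 times, but a count can hide changed members: the same members as in the main result were called in 110 of 153 combinations of comparison and alternative. Between 28 and 9 months Eed was lost under 9 of 12 alternatives, and the count stayed at 3 with DESeq2 size factors (Ezh1, Suz12 and Phf1) and with the proliferation covariate (Suz12, Phf1 and Rbbp7).

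The counts that moved were small. Between 9 and 3 months the 1 call became 0 at a threshold of 0.05, with no filter on low counts and without the mice low in smooth muscle, and 2 with the replicate block and without the mouse of lowest correlation (28-month mouse 13). Between 15 and 3 months it became 2 with DESeq2 size factors, the replicate block and without that mouse, and 0 with smooth muscle and B cell covariates and without the mice low in smooth muscle. Between 24 and 15 months it became 0 at 0.05 and with no filter, and 2 with the proliferation covariate and with only the 2 ages. Between 24 and 9 months 0 became 1 with the smooth muscle and B cell covariates and without the mice low in smooth muscle (Suz12) and with only the 2 ages (Phf1), and between 28 and 24 months 1 without 28-month mouse 13 (Phf1). The departure of Phf1 from a line was lost with the proliferation covariate (0). Of the relations, 15 passed when centered within batch only, against 8. The cause of these moves was not tested.

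Replicate numbers gave no sign of pairing the mice: deviations of same-numbered mice had a median correlation of -0.005, and 28 of 161 pairs were over 0.1. For mice of other numbers the median was -0.00117, and 399 of 2593 pairs were over 0.1. The replicate block changed no other count by over 1.5 times. Changes of a few percent, as in Ezh2 or Suz12, are within the intervals that this depth and number of mice allow.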

Other observations

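Correlations between the members were computed after the lists above had been seen, on the same centered log2 CPM, and are given as values with r and rho over 83 mice and p-values from permutation within age and batch. Of the 45 pairs, 22 had an adjusted p-value below 0.1 for r. The share among pairs of other genes was not computed, so this count has no background beside it. The highest r among the 45, that of Suz12 and Mtf2, lay below that of Suz12 with Phf6 (0.800) and of Mtf2 with Fam126b (0.821). Suz12 and Mtf2 had r = 0.586 (permutation p = 1e-05, adjusted p = 0.00015) and rho = 0.498 (permutation p = 1e-05), with r = 0.555 without the 2 mice farthest from the median and 0.741, 0.358 and 0.549 within batches. For Phf19 and Rbbp7 r was 0.573 (permutation p = 1e-05, adjusted p = 0.00015) and rho 0.597 (permutation p = 1e-05), with 0.605 without the 2 mice and 0.695, 0.601 and 0.473 within batches. Ezh1 and Ezh2, the alternative enzymes, had r = -0.162 (permutation p = 0.174, adjusted p = 0.253) and rho = -0.161 (permutation p = 0.169). For these enzymes r was -0.0743 without the 2 mice and -0.169, -0.312 and 0.064 within batches.

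Phf1 and Rbbp7 were negatively related, with r = -0.550 (permutation p = 1e-05, adjusted p = 0.00015) and rho = -0.574 (permutation p = 1e-05), with -0.601 without the 2 mice and -0.610, -0.589 and -0.484 within batches.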
